A study of Mus musculus with 6 samples.

Results

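The 10 genes described here encode the core of the inflammasome and of pyroptosis: the sensors Nlrp3, Nlrp1b, Nlrc4, Aim2 and Mefv, the NLRP3 cofactor Nek7, the adaptor Pycard, the caspases Casp1 and Casp4, and the pore-forming protein Gsdmd. They were chosen by name from 53546 gene rows of the count tables, and all 10 were present and passed the filter on low counts. The libraries were made from primary non-parenchymal cells of the livers of male mice, a fraction with macrophages, other leukocytes, endothelial cells and stellate cells. Every mouse had received acetaminophen, at 400 mg/kg into the peritoneum, and cells were taken 6 h later. One group of 3 libraries was wild type and the other, also of 3, was SRA-/-, which lacks the macrophage scavenger receptor A encoded by Msr1. Strain, age, the targeted exon and untreated mice are absent from the descriptions read, so no value below is a response to acetaminophen, and SRA-/- is the genotype of the whole animal rather than of 1 cell type.

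An inflammasome is a protein platform that forms in the cytosol when a sensor meets its trigger. The sensor recruits PYCARD (ASC), which gathers and activates caspase-1. Caspase-1 cuts the precursors of interleukin-1 beta and interleukin-18 and also gasdermin D, whose freed end opens pores in the plasma membrane, and the inflammatory death that follows is pyroptosis. Mouse caspase-11, encoded by Casp4, binds cytosolic lipopolysaccharide itself and cuts gasdermin D without a sensor. In the liver the pathway is best known in Kupffer cells, the resident macrophages, and in recruited neutrophils and monocytes. Platform assembly, caspase activity and cleavage are protein events that RNA counts do not measure.

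No difference between SRA-/- and wild type cells in the 10 genes passed the test. By edgeR's quasi-likelihood test with Benjamini-Hochberg adjustment over 20541 genes, 0 of 10 passed the adjusted threshold of 0.05, against 0.0487% of all tested genes (0.0341% higher and 0.0146% lower in SRA-/-). At an unadjusted p under 0.05 there were also 0 of 10, against 3.22% of all tested genes (2.32% higher and 0.896% lower), and 0 of the 10 were called by DESeq2, against 0.208% of all genes it tested, and by limma-voom with quality weights, against 0.482%. The groups overlapped in all 10 genes, while 7.3% of all tested genes did not overlap (3.97% higher and 3.33% lower in SRA-/-). Log2 fold changes, SRA-/- minus wild type, were above 0 in 5 genes and below 0 in 5, against 48.3% above 0 over all tested genes, with a median of 0.01 beside -0.01 over all tested genes. Without wild type replicate 1, 2 of the 10 were above 0 (median -0.10), and without wild type replicate 3, 9 were (median 0.37). The 10 genes comprised a set within 1.52-fold over the 6 libraries (Nek7, Gsdmd and Pycard) and a set with a wide spread between libraries of the same group (Nlrp3, Mefv, Nlrp1b, Casp1, Casp4, Nlrc4 and Aim2).

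**Figure D1:**
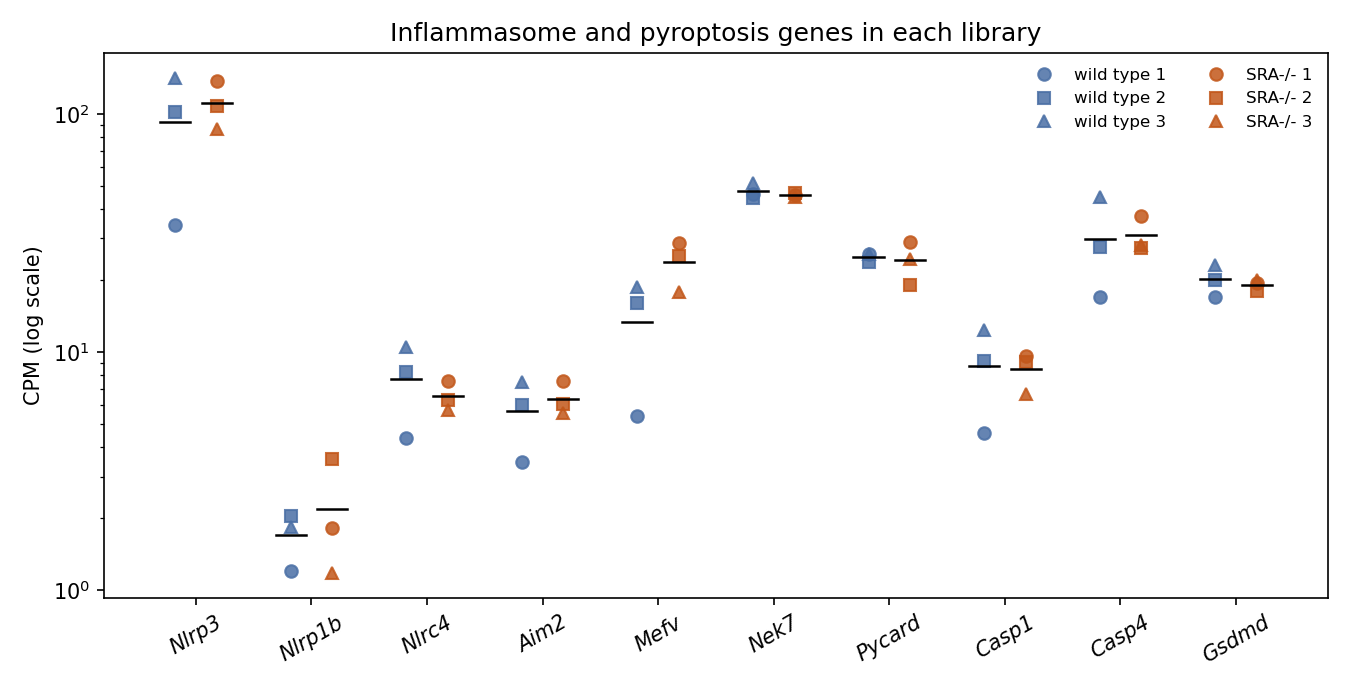
Counts scaled to library size (CPM, log axis) of the 10 genes in each library, wild type in blue and SRA-/- in orange, with 1 marker shape per replicate number and a bar at each group mean (n = 3). Wild type replicate 1 (blue circle) lies below the other 5 libraries in 7 of the 10 genes, and the groups overlap in each gene.

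As a sequence context for these 2 kinds of gene, 4 promoter windows are shown, each the 250 bases before the most upstream start that RefSeq lists (GRCm38.p6), printed 5′ to 3′ on the gene's strand. Nlrp3 and Casp4 are among the genes with a wide spread, Pycard and Nek7 among those with a narrow one. Capitals mark matches, on either strand, to 4 motifs: the consensus of NF-kB, the PU.1 core GAGGAAGT, the interferon-stimulated response element and the interferon-gamma activated site TTCNNNGAA. The windows lie at chr11:59541319-59541568 on the plus strand for Nlrp3, chr9:5308599-5308848 on the plus strand for Casp4, chr7:127993868-127994117 on the minus strand for Pycard and chr1:138619758-138620007 on the minus strand for Nek7.
Nlrp3: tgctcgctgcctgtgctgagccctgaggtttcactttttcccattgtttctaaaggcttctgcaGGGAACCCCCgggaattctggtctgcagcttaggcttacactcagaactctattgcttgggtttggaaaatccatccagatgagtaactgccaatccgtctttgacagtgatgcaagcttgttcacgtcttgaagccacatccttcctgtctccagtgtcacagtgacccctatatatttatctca
Casp4: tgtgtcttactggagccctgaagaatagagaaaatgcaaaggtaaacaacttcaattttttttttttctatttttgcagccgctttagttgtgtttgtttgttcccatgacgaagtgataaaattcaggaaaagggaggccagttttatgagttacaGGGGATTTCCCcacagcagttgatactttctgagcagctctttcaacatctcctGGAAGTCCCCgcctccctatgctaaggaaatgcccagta
Pycard: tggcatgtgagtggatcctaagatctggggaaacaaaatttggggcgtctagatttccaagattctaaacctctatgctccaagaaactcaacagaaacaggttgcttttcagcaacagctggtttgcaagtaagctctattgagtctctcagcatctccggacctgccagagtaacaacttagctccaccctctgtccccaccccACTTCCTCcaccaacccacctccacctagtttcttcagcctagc
Nek7: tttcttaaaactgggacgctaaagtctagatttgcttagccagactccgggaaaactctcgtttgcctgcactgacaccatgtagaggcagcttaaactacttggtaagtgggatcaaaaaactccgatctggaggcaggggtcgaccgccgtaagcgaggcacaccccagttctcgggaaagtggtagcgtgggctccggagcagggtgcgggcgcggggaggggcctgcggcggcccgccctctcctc
The Nlrp3 window held 1 match to the NF-kB consensus, beginning 186 bases before the start. The Casp4 window held 3, at 93, 92 and 39 bases before the start, of which the first and the second overlap. Pycard had 1 PU.1 core on the opposite strand, at 44 bases before the start. Aim2 and Nlrp1b had 1 PU.1 core each, at 113 and 96 bases, and the windows of Nek7, Nlrc4, Mefv and Casp1 had no match to any of the 4 motifs. In the other genes with a wide spread no window matched the NF-kB consensus, so the windows printed do not represent them. Gsdmd is named only. Of 32851 windows of this length in the RefSeq table, 7.25% matched the NF-kB consensus, 2.44% the PU.1 core, 2.98% the interferon-stimulated response element and 7.02% the interferon-gamma activated site. A match is a string of letters and is not evidence of binding, and a window without one says nothing of these factors.

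A few facts of the libraries bear on all values. Gene counts summed to 23757203 to 44003902 per library, and a floor of 6 counts (both mates of 3 fragments) lay at 0.131 to 0.272 CPM. CPM is the count relative to a library's scaled size, and all 10 genes lay above this in every library. Msr1 had 1123, 1936 and 3838 counts in wild type replicates 1 to 3 and 1848, 1005 and 925 in SRA-/- replicates 1 to 3. These are 38.6, 73.5 and 114 CPM against 40.2, 33.6 and 42 CPM, and the groups overlapped. Its log2 fold change was -0.96 ± 0.33 (SE; unadjusted p 0.0166 and adjusted p 0.9999 by edgeR's quasi-likelihood test). A count over the whole gene does not check a deletion of unknown position. Mitochondrial genes took 19.8%, 9.95% and 16.1% of counts in wild type replicates 1 to 3 and 11.2%, 21.1% and 6.64% in SRA-/- replicates 1 to 3. Markers of Kupffer, endothelial and stellate cells were detected in all libraries, as the cell label states. Hepatocyte RNA was also present, with 10 hepatocyte markers summing to 27632 CPM in wild type replicate 3 and to 100294 CPM in SRA-/- replicate 3. Pancreatic acinar markers (10 genes, of which Amy2a5 was at most 6 counts in each library) summed to 378 to 727 CPM in wild type libraries and to 2.18, 263 and 2.36 CPM in SRA-/- replicates 1, 2 and 3. In bulk RNA, fewer cells of a type and less RNA per cell cannot be told apart.

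Among the sensors, Nlrp3 was the most abundant. NLRP3 answers potassium efflux and membrane damage, and its own RNA is made on priming by Toll-like receptors or cytokines. Nlrp3 (chromosome 11, 59432394 to 59457782, mm39) had 34.2, 102 and 142 CPM in wild type replicates 1, 2 and 3 and 138, 108 and 86.2 CPM in SRA-/- replicates 1, 2 and 3. The highest and the lowest of the 6 values were both wild type, and the SRA-/- libraries lay between them. Means were 92.5 ± 54.2 CPM in wild type and 111 ± 26 CPM in SRA-/- (SD, n = 3 each). On the log2 scale the fold change was 0.26 ± 0.42 (SE; 95% interval -0.69 to 1.21; edgeR's adjusted p 0.9999). This value was -0.12 without wild type replicate 1 and 0.71 without wild type replicate 3, so its direction rested on the first of these libraries.

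Mefv, which encodes pyrin, a sensor that is abundant in neutrophils and monocytes, had the largest log2 fold change of the 10. Mefv (chromosome 16, 3525082 to 3535961) had 5.39, 16 and 18.7 CPM in wild type replicates 1 to 3 and 28.6, 25.4 and 17.9 CPM in SRA-/- replicates 1 to 3. Both highest values were SRA-/-, but SRA-/- replicate 3 lay below wild type replicate 3. The fitted difference was 0.84 ± 0.40 (SE) on the log2 scale, with a 95% interval of -0.05 to 1.73. By edgeR's quasi-likelihood test its unadjusted p was 0.0609 and its adjusted p 0.9999. This fold change was above 0 in all 15 alternatives and between 0.43 and 1.16, with an adjusted p of at least 0.355 in each of them. Its unadjusted p was under 0.05 in 3 of them, by DESeq2, by limma-voom with quality weights and without wild type replicate 3, and its smallest value was 0.0257. Leaving out wild type replicate 1 reduced the fold change to 0.47 (log2).

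Relative to Nlrp3 in the same library, Mefv separated the groups, a comparison chosen after the values were seen. Per kilobase of exon, the ratio of Mefv to Nlrp3 was 0.197, 0.197 and 0.165 in wild type replicates 1 to 3 and 0.259, 0.292 and 0.259 in SRA-/- replicates 1 to 3. The log2 ratio was 0.54 higher in SRA-/- libraries, with a two-sided exact permutation p of 0.1, the smallest that 3 against 3 libraries allow. Any ratio whose groups do not overlap gives this permutation p, so it adds nothing to the separation for which the ratio was picked. Among the 45 pairs of the 10 genes, 11 ratios (24.4%) did not overlap between the groups, and 7 of those 11 involved Mefv. Against all genes with counts in every library, 33.6% of 20337 ratios with Mefv as numerator did not overlap, and 4.56% of those with Nlrp3. The 24.4% is to be read beside these shares, although it covers pairs within the 10 genes and they cover a single gene against all others.

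The other 3 sensors were present at lower levels. NLRC4 responds to bacterial flagellin and secretion systems through NAIP proteins, AIM2 binds double-stranded DNA in the cytosol, and NLRP1B is activated when proteases or inhibition of dipeptidyl peptidases free its active end. Nlrc4 (chromosome 17, 74732433 to 74766137) had 4.36, 8.24 and 10.5 CPM in wild type replicates 1 to 3 and 7.57, 6.28 and 5.72 CPM in SRA-/- replicates 1 to 3. The SRA-/- values again lay inside the wild type range, and the log2 fold change was -0.23 ± 0.31 (SE). It was -0.51 without wild type replicate 1 and 0.05 without wild type replicate 3, and its unadjusted p was at least 0.0542 in all 15 alternatives. Aim2 (chromosome 1, 173178445 to 173293606) had 3.44, 6 and 7.52 CPM in wild type and 7.53, 6.05 and 5.54 CPM in SRA-/- replicates 1 to 3, with a log2 fold change of 0.17 ± 0.30 (SE). The highest value of each group was nearly the same. The fold change of Aim2 was -0.07 without wild type replicate 1 and 0.44 without wild type replicate 3, so its sign rested on the first of these. Nlrp1b (chromosome 11, 71043928 to 71121559) was the least abundant. Wild type replicates 1 to 3 held 35, 54 and 62 counts of it, and SRA-/- replicates 1 to 3 held 84, 107 and 26. These are 1.2, 2.05 and 1.84 CPM against 1.83, 3.57 and 1.18 CPM, and SRA-/- replicates 2 and 3 were the highest and the lowest of all 6 libraries. Its log2 fold change of 0.38 ± 0.43 (SE) was -0.15 without SRA-/- replicate 2. Of its 50-base stretches 1.45% occur in transcripts of other genes, mostly of its neighbour Nlrp1a, and reads that fit both were not counted.

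Nek7 and Pycard encode partners that the NLRP3 platform needs. NEK7 is a kinase that bridges NLRP3 molecules independently of its kinase activity. Nek7 (chromosome 1, 138410613 to 138547879) had 46.3, 44.5 and 51.3 CPM in wild type and 45.6, 46.4 and 45 CPM in SRA-/- replicates 1 to 3. All 6 libraries lay within 1.15-fold of each other. Between the groups the log2 fold change of Nek7 was -0.05 ± 0.15 (SE), and its 95% interval corresponds to 0.761-fold to 1.22-fold. Pycard (chromosome 7, 127588880 to 127593039) had 25.7, 23.9 and 25.9 CPM in wild type and 29.1, 19.1 and 24.7 CPM in SRA-/- replicates 1 to 3. Wild type libraries were close together and fell inside the range of the SRA-/- libraries, and the log2 fold change was -0.05 ± 0.19 (SE; interval 0.716-fold to 1.3-fold). It was -0.20 without SRA-/- replicate 1 and 0.10 without SRA-/- replicate 2. Exons of the gene Gm45205 cover 12.8% of the Pycard exons, and reads there went to neither gene.

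Casp1 and Casp4 lie side by side on chromosome 9, at 5298508 to 5307290 and 5308828 to 5336783, and had like patterns over the libraries. Casp1 had 4.57, 9.19 and 12.4 CPM in wild type and 9.62, 9.12 and 6.67 CPM in SRA-/- replicates 1 to 3. Casp4 had 17.1, 27.6 and 45 CPM in wild type and 37.3, 27.4 and 28.2 CPM in SRA-/- replicates 1 to 3. For both genes, wild type replicate 1 was the lowest and wild type replicate 3 the highest of all libraries. Log2 fold changes were -0.04 ± 0.34 (SE) for Casp1 and 0.05 ± 0.31 (SE) for Casp4, and each changed sign with the library left out, from -0.34 to 0.30 and from -0.22 to 0.47. Per kilobase of exon, Casp4 RNA was 2.54 to 3.57 times that of Casp1 within each library. None of the 1448 stretches of 50 bases checked for Casp1 occurs in another gene's transcripts and 0.24% of the 3752 checked for Casp4 do. The Casp1 transcripts checked cover less than the 3136 bp of exons counted, so the rest was not checked. Casp12, the next caspase gene in this cluster, had 1.86, 3.04 and 2.84 CPM in wild type and 2.96, 4.58 and 1.86 CPM in SRA-/- replicates 1 to 3.

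Gsdmd, the common target of both caspases, resembled Nek7 and Pycard in its small spread. Gsdmd (chromosome 15, 75734176 to 75739257) had 17.1, 20.1 and 23.3 CPM in wild type and 19.5, 18 and 20 CPM in SRA-/- replicates 1 to 3. All SRA-/- values fell inside the wild type range. Its log2 fold change was -0.07 ± 0.18 (SE), and the 95% interval corresponds to 0.717-fold to 1.26-fold. For Nek7, Pycard and Gsdmd the data thus bound any group difference more tightly than for Nlrp3, whose interval ran from 0.621-fold to 2.32-fold, or Mefv, from 0.968-fold to 3.31-fold.

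**Figure D2:**
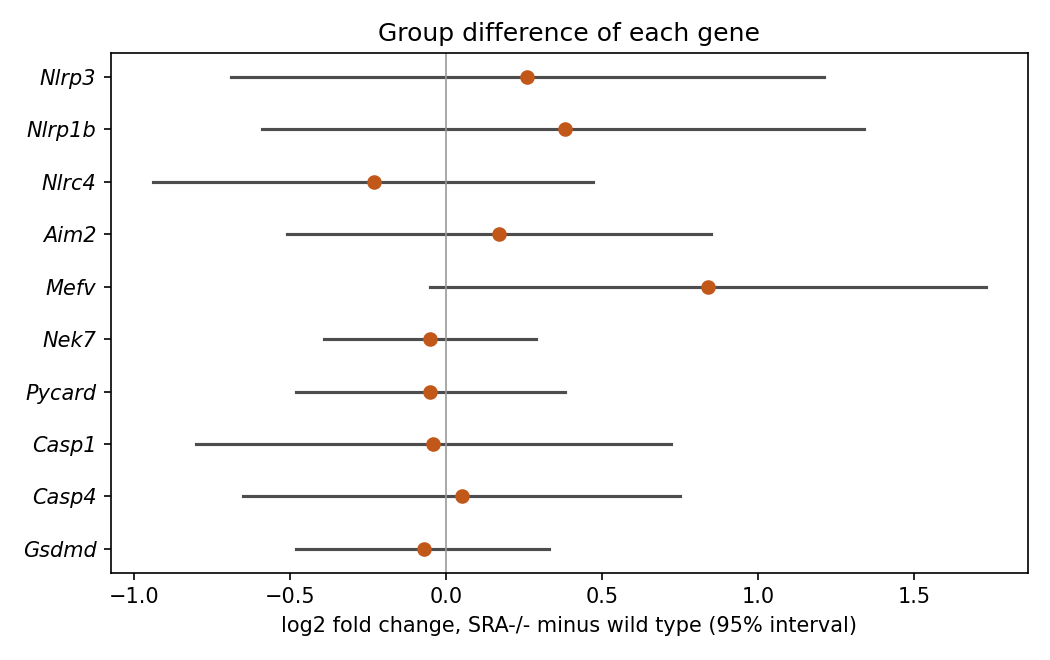
Log2 fold change of each gene, SRA-/- minus wild type (orange point), with its 95% interval from the edgeR fit on 3 against 3 libraries (line). All 10 intervals include 0, and the narrowest is that of Nek7, from -0.39 to 0.29.

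Compared per kilobase of exon over all 6 libraries, the order of levels was Nlrp3 (mean 25.1 CPM per kb), Gsdmd (8.28), Casp4 (8.21), Pycard (6.51), Nek7 (6.3), Mefv (5.74), Casp1 (2.74), Aim2 (1.72), Nlrc4 (1.48) and Nlrp1b (0.309). Nlrp3 was above Gsdmd within all 6 libraries, although in wild type replicate 1 it had only 8.44 CPM per kb. Among Gsdmd, Casp4, Pycard, Nek7 and Mefv, neighbours in this order had overlapping ranges, and which of 2 neighbours was higher changed between libraries. Gsdmd, at 7.2 to 9.8 CPM per kb, lay above Nek7, at 6.03 to 6.95, in every library. Aim2 lay above Nlrc4 in 4 libraries. Nlrp1b alone was separated from its neighbour in this order by a gap, its highest value of 0.567 CPM per kb lying under the lowest of Nlrc4, 0.908. Exon length counts all annotated exons of a gene, and transcripts in these cells may use fewer.

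The 10 genes varied unequally between libraries of the same group. The SD of log2 CPM within groups was 0.79 for Nlrp3, 0.73 for Mefv, 0.62 for Nlrp1b, 0.55 for Casp1, 0.52 for Casp4, 0.48 for Nlrc4 and 0.44 for Aim2, beside a median of 0.36 over all tested genes. For Pycard, Gsdmd and Nek7 it was 0.22, 0.17 and 0.08. Wild type replicate 1 was the lowest library in 7 of the 10 genes, and 22.8% of all tested genes had their lowest value there. In that library Nlrp3 lay 1.44 log2 units below its mean over 6 libraries (-1.44) and Mefv lay at -1.61, while Gsdmd lay at -0.19 and Pycard at 0.07. The ratio of Nlrp3 to Nek7 RNA per kilobase accordingly ran from 1.34 in wild type replicate 1 to 5.51 in SRA-/- replicate 1.

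**Figure D3:**
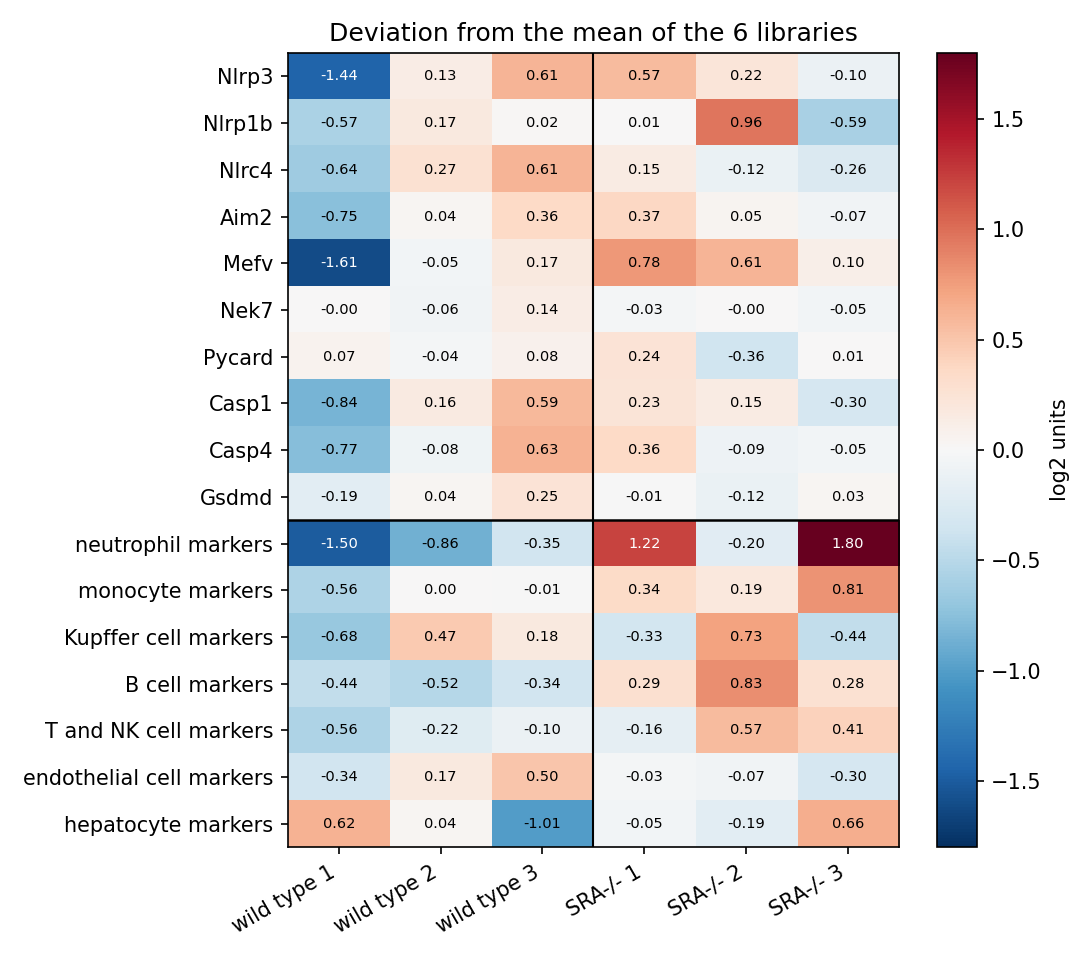
Deviation of log2 CPM from the mean of the 6 libraries for each of the 10 genes, and below the line the median deviation of marker lists of 7 cell types, by library; red is above and blue below the mean. In wild type replicate 1 Nlrp3 (-1.44) and Mefv (-1.61) are far below their means, as is the neutrophil list (-1.50), and the hepatocyte list is above (0.62).

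Cell type markers also varied between the libraries, in patterns that differed by cell type, and their part in the values of the 10 genes was not tested. In wild type replicate 1, 8 Kupffer cell markers summed to 616 CPM, against 984 to 1188 CPM in the other wild type libraries and 748 to 1387 CPM in SRA-/- libraries. Neutrophil markers (10 genes, of which Camp was at most 6 counts in each library) summed to 13.4, 25 and 30 CPM in wild type replicates 1 to 3 and to 103, 34.7 and 132 CPM in SRA-/- replicates 1 to 3. SRA-/- replicate 3, with the highest neutrophil sum, had the lowest Nlrp3 and Mefv of its group, and SRA-/- replicate 1, with the next highest sum, had the highest. Monocyte markers, 7 genes, summed to 19.2 to 31.8 CPM in wild type and 30.9 to 35.7 CPM in SRA-/- libraries. Endothelial markers, 8 genes, summed to 1841 to 3453 CPM in wild type and 1932 to 2324 CPM in SRA-/- libraries. Their sum was, like Nlrp3, Casp1, Casp4, Nlrc4 and Gsdmd, lowest in wild type replicate 1 and highest in wild type replicate 3. Of these endothelial markers, 8 of 8 had log2 fold changes below 0. B cell markers, 6 genes, summed to 11.6, 9.76 and 13.1 CPM in wild type and 19.9, 28.3 and 19 CPM in SRA-/- replicates 1 to 3. These sums did not overlap between the groups, though Ms4a1 and Fcer2a of this list did, and 6 of 6 genes had log2 fold changes above 0. T and NK cell markers, 8 genes, summed to 8.76, 10.8 and 12.6 CPM in wild type and 12.1, 18.9 and 16.9 CPM in SRA-/- replicates 1 to 3, and 7 of 7 tested were above 0. Above 0 were also 5 of 6 tested neutrophil, 4 of 8 Kupffer cell and 4 of 7 monocyte markers, beside 48.3% of all tested genes. No marker of these lists was at 0 in all libraries.

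Genes whose levels followed Nlrp3 most closely over the 6 libraries, among 8111 with a mean of at least 10 CPM, were Ccl6, a chemokine gene of myeloid cells (r = 0.996), the transcription factor gene Elf4 (0.996), Slfn2 (0.993), Max (0.991) and Gmip (0.991). Those nearest to Casp1 were Gnai2, a G protein subunit (0.992), the actin regulator gene Arpc1b (0.992), Ptprm, Adipor1 and Ccdc97 (0.991 each). These are Pearson coefficients of log2 CPM over 6 libraries that share wild type replicate 1 as their lowest point for both genes, and they describe likeness of pattern only. Ccl6 ran from 33.2 to 115 CPM, a log2 fold change of 0.16 between the groups, and Gnai2 from 102 to 195 CPM.

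**Figure D4:**
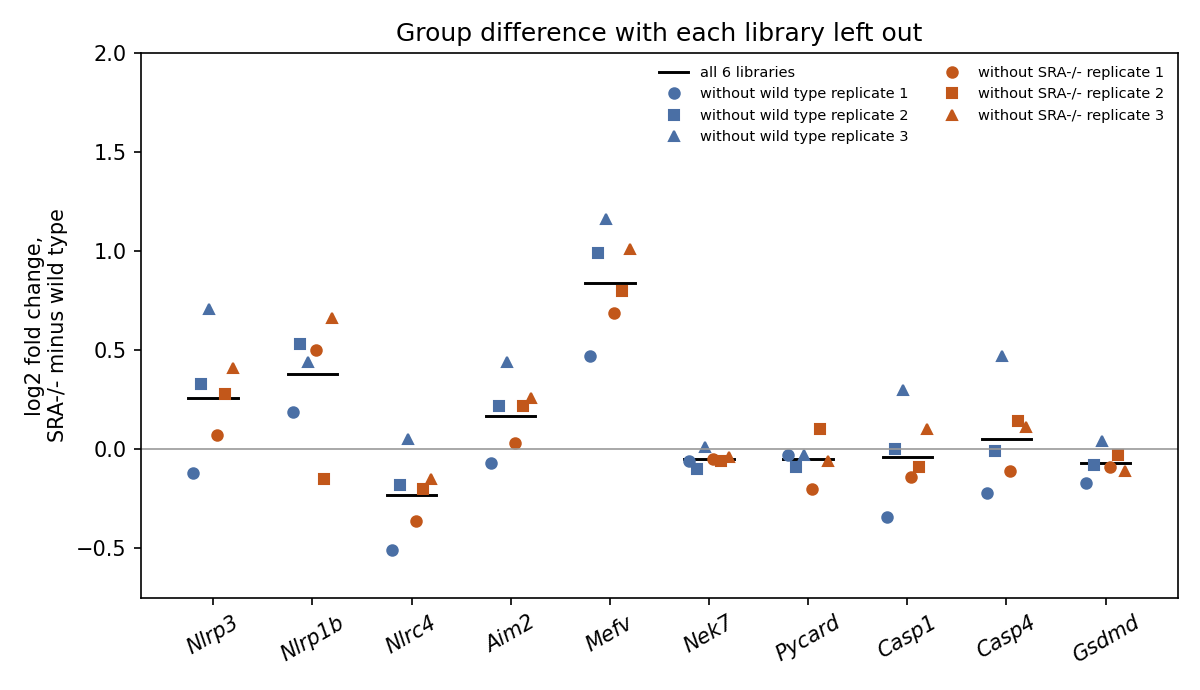
Log2 fold change, SRA-/- minus wild type, with all 6 libraries (black bar) and with each library left out (markers, blue for a wild type and orange for an SRA-/- library). Mefv stays between 0.47 and 1.16, whereas Nlrp3 runs from -0.12 to 0.71 and Casp4 from -0.22 to 0.47.

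No other inflammasome sensor passed the test. Of 12 genes matched, 9 were tested, with a median log2 fold change of 0.11, 0 passed in either direction and 0 had an unadjusted p under 0.05 by edgeR; DESeq2 and limma-voom called 0. Nlrp6, a sensor of microbial products best known from the intestinal epithelium, was the most abundant of the list per kilobase, with 212, 149 and 152 CPM in wild type and 131, 127 and 145 CPM in SRA-/- replicates 1 to 3. Each SRA-/- library was below each wild type library, at a log2 fold change of -0.35 ± 0.20 (SE) and an unadjusted p of 0.113 by edgeR. Nlrp6 was highest in wild type replicate 1, where hepatocyte markers summed to 84425 CPM. These markers summed to 100294 CPM in SRA-/- replicate 3 and to 27632 CPM in wild type replicate 3, and their part in the Nlrp6 values was not tested. Naip1, a NAIP protein gene that serves NLRC4, had 6.98 CPM in SRA-/- replicate 2 and 1.32 to 3.08 CPM in the other 5 libraries. Its log2 fold change of 0.56 ± 0.57 (SE) was -0.52 without SRA-/- replicate 2. Naip2 had a log2 fold change of 0.16 ± 0.24 (SE), which was -0.04 without the same library, and Zbp1, a sensor of Z-form nucleic acids, 0.36 ± 0.29 (SE). Naip genes are related copies, and reads that fit several were not counted. How much sequence they share was not checked.

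Genes of the interleukin-1 and interleukin-18 family, only partly downstream of caspase-1, held the largest differences, though again none passed over all genes by edgeR. In the list of the interleukin-1 and interleukin-18 family 12 of 12 genes were tested, 9 were above 0 on the log2 scale, the list's median being 0.57 beside -0.01 over all tested genes, and 0 passed by edgeR in either direction. At an unadjusted p under 0.05 there were 3, all higher in SRA-/-, beside 2.32% of all tested genes in that direction, and DESeq2 called 1 over all genes, Il1r2. Il1r2, the decoy receptor that binds interleukin-1 without signalling, had 4.47, 8.62 and 11.2 CPM in wild type and 46.2, 9.15 and 33.6 CPM in SRA-/- replicates 1 to 3. SRA-/- replicates 1 and 3 stood above the others, and replicate 2 lay within the wild type range. Mitochondrial shares in SRA-/- replicates 1 and 3 were 11.2% and 6.64%, against 21.1% in replicate 2, and the part of this in the difference was not tested. The fitted difference was 1.87 ± 0.53 (SE) on the log2 scale (edgeR's adjusted p 0.896). The same 2 libraries had the highest neutrophil sums, 103 and 132 CPM, and the part of neutrophil number in the Il1r2 difference was not tested. Without wild type replicate 1 and SRA-/- replicate 2 together, a pair chosen after the data were seen, Il1r2 and Il18rap passed edgeR's test. In both genes SRA-/- replicate 2 was the library of its group within the wild type range, so this pass is no support for a difference. Among the 20541 genes tested with all libraries, 100 passed in that setting, against 10 with all libraries.

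Il18rap, the signalling chain of the interleukin-18 receptor, showed a like pattern, with 2.44, 3.3 and 4.62 CPM in wild type and 9.68, 4.54 and 12.5 CPM in SRA-/- replicates 1 to 3. Neutrophil sums were 13.4, 25 and 30 CPM in wild type and 103, 34.7 and 132 CPM in SRA-/- replicates 1 to 3. Like Il18rap, they were lowest in wild type replicate 1, and within SRA-/- libraries lowest in replicate 2 and highest in replicate 3. B cell sums were higher in SRA-/- without overlap. T and NK cell sums overlapped, at 12.1 CPM in SRA-/- replicate 1 and 12.6 CPM in wild type replicate 3. Both had their highest sums, 28.3 and 18.9 CPM, in SRA-/- replicate 2. The part of these cell types in the values of Il18rap, Tnfrsf1b, Syk and Ptpn22 was not tested. The fold change of Il18rap on the log2 scale was 1.36 ± 0.39 (SE; edgeR's adjusted p 0.896). Il1rl1, the receptor of interleukin-33, was below 1 CPM in each library, at 0.241 to 0.296 CPM in wild type and 0.468 to 0.762 CPM in SRA-/- libraries, without overlap (adjusted p 0.9999 by edgeR). Wild type replicates 1 to 3 held 7, 7 and 10 counts of Il1rl1, and SRA-/- replicates 1 to 3 held 35, 14 and 14, close to the floor of 6 counts. Il18r1 had a log2 fold change of 0.65 ± 0.40 (SE). Il1b, the main product of caspase-1 and the most abundant of the list per kilobase, had 48.3, 191 and 194 CPM in wild type and 267, 192 and 207 CPM in SRA-/- replicates 1 to 3. As with Nlrp3, wild type replicate 1 was far below the rest. The log2 fold change of Il1b was 0.62 ± 0.44 (SE), and 0.21 without that library. Per kilobase, Il1b RNA was 2.91 to 5.11 times that of Nlrp3 within each library. Il18, the other caspase-1 substrate, had 2.06, 2.09 and 2.07 CPM in wild type and 2.5, 1.6 and 3.27 CPM in SRA-/- replicates 1 to 3, so that the ratio of Il1b to Il18 per kilobase ran from 12.7 to 64.7.

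Of the 13 genes of other gasdermins, caspases and membrane rupture, 7 were tested and 0 passed in either direction, with a median log2 fold change of 0.08. Ninj1, which ruptures the membrane after pore formation, had 49.1, 67.1 and 60.8 CPM in wild type and 62.7, 71.2 and 59.7 CPM in SRA-/- replicates 1 to 3, a log2 fold change of 0.13 ± 0.18 (SE). Gsdme, another gasdermin gene, had 9.59 to 19.1 CPM in wild type and 11 to 16.3 CPM in SRA-/- libraries. Gsdma2, Gsdma3 and Gsdmc had 0 counts in every library, and Gsdmc4 at most 0.501 CPM. Per kilobase, Gsdmd had 7.2 to 9.8 and Gsdme 0.753 to 1.5 CPM per kb over the 6 libraries, without overlap.

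Priming genes, which license Nlrp3 and Il1b transcription, had 20 of 20 tested and 0 past edgeR's test in either direction, while limma-voom called 1, Tnfrsf1b, beside 0.482% of all tested genes. Of these, 18 were above 0 on the log2 scale (median 0.17), beside 48.3% of all tested genes. At an unadjusted p under 0.05 there were 3, all higher in SRA-/-, beside 2.32% of all tested genes in that direction. Tnfrsf1b, the receptor 2 of tumour necrosis factor, had 101, 96.3 and 77.5 CPM in wild type and 164, 143 and 168 CPM in SRA-/- replicates 1 to 3. The groups did not overlap, and the fitted difference was 0.79 ± 0.18 (SE) on the log2 scale, where edgeR's adjusted p was 0.675 and limma-voom's 0.044. This difference was between 0.69 and 0.87 whichever library was left out. Tlr2, the receptor of bacterial lipoproteins, had 5.98, 9.95 and 13.2 CPM in wild type and 25.3, 13.2 and 16.7 CPM in SRA-/- replicates 1 to 3, and Irak2, a kinase of its pathway, 50.9 ± 3.5 against 66.8 ± 5.7 CPM (SD, n = 3 each). Exons of Gm43963 cover 4.44% of those of Irak2, and exons of Il1bos 1.31% of those of Il1b. Cd14, the co-receptor of lipopolysaccharide and the most abundant of the list per kilobase, had a log2 fold change of 0.15 ± 0.33 (SE). That of Cd14 was -0.15 without wild type replicate 1, 0.40 without wild type replicate 2, -0.01 without SRA-/- replicate 1 and -0.11 by limma-voom. Ifnar1, a chain of the type I interferon receptor, had a log2 fold change of 0.24 ± 0.16 (SE).

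Among 19 genes listed as activation triggers and positive regulators, all tested, 0 passed by edgeR, DESeq2 or limma-voom. The list includes Dpp9, a dipeptidyl peptidase gene, so not every gene in it is a positive regulator. At an unadjusted p under 0.05 there were 2 higher, Syk and Txnip, and 1 lower, Brcc3, beside 2.32% higher and 0.896% lower of all tested genes, and the median log2 fold change was 0.16. Syk, a kinase that phosphorylates PYCARD, had 29.8, 54 and 71.7 CPM in wild type and 89.1, 76.9 and 95.5 CPM in SRA-/- replicates 1 to 3, without overlap, a log2 fold change of 0.75 ± 0.29 (SE). Txnip, a thioredoxin-binding protein reported to bind NLRP3, had 119, 115 and 106 CPM in wild type and 210, 196 and 109 CPM in SRA-/- replicates 1 to 3, with SRA-/- replicate 3 at the wild type level. Exons of Gm15441 cover 19.4% of those of Txnip, so its value is uncertain. Brcc3, which removes ubiquitin from NLRP3, had 14.4, 9.61 and 9.95 CPM in wild type and 6.7, 7.31 and 9.26 CPM in SRA-/- replicates 1 to 3, a log2 fold change of -0.55 ± 0.24 (SE). Bst1 had a log2 fold change of 1.05 ± 0.50 (SE). The guanylate-binding proteins Gbp2, Gbp3, Gbp5 and Gbp7, which expose bacterial surfaces to caspase-11, were each lowest in wild type replicate 1 and highest in SRA-/- replicate 1, with log2 fold changes of 0.12 to 0.66.

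No gene of the list drawn up as inhibitors passed the test either. Ptpn22, Mark4 and Pstpip1 of this list are also reported to promote activation, so its values do not describe inhibitors alone. Of 16 matched genes 15 were tested and 0 passed by edgeR, DESeq2 or limma-voom, with a median log2 fold change of 0.04 and 1 gene with an unadjusted p under 0.05, beside 3.22% of all tested genes. That gene, Pstpip1, encodes an adaptor that binds pyrin, and had 2.58, 3.57 and 5.71 CPM in wild type and 9.38, 4.88 and 9.53 CPM in SRA-/- replicates 1 to 3. SRA-/- replicate 2 lay within the wild type range. Group means were 3.95 ± 1.6 and 7.93 ± 2.65 CPM (SD, n = 3 each; edgeR's adjusted p 0.9999). Log2 fold changes were 0.52 ± 0.26 (SE) for Ptpn22, 0.51 ± 0.30 (SE) for Tnip1 and 0.45 ± 0.28 (SE) for Serpinb9. Sqstm1, the autophagy receptor that removes damaged mitochondria and the most abundant of the list per kilobase, had 909, 1225 and 1320 CPM in wild type and 1094, 994 and 1310 CPM in SRA-/- replicates 1 to 3.

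**Figure D5:**
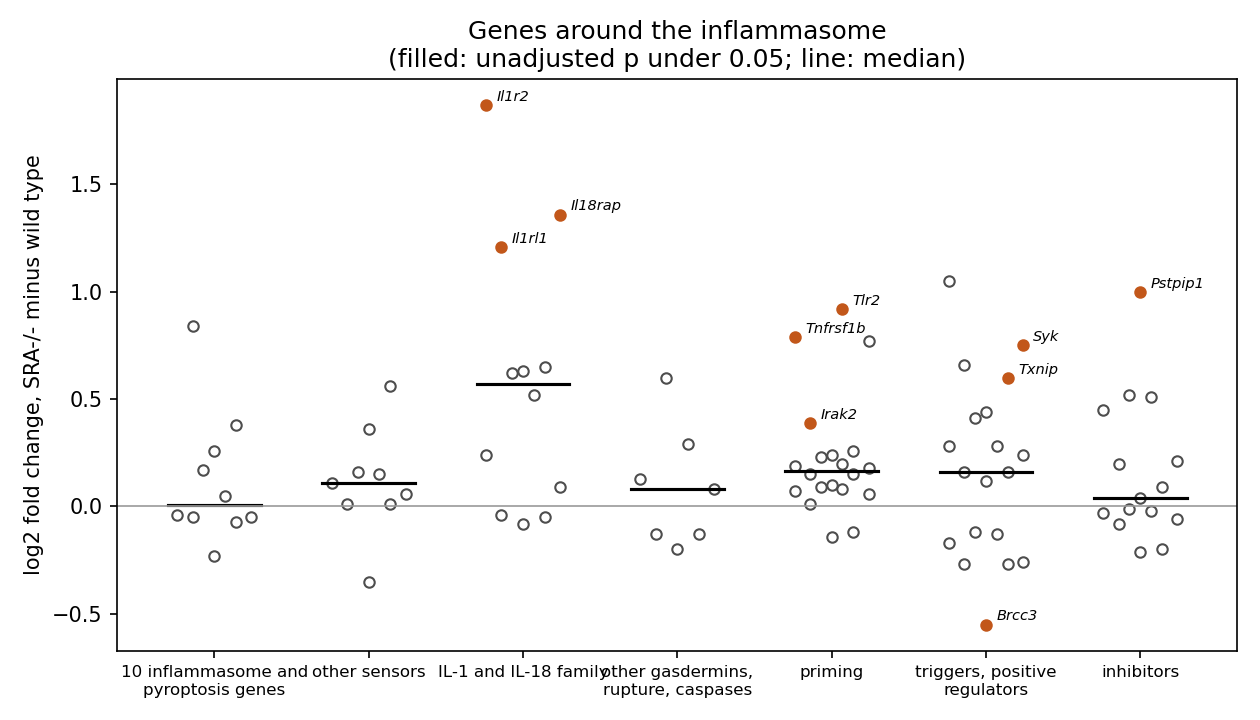
Log2 fold change, SRA-/- minus wild type, of each tested gene in the set of 10 and in 6 further lists, 1 circle per gene and a line at the median. Filled circles have an unadjusted p under 0.05 by edgeR; the set of 10 has none, and none of the genes shown passes after adjustment.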

How the data were processed

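Counts were analysed from 6 libraries, 3 per group, grouped and numbered by the titles, which call the replicates biological; nothing says more of their origin, so p-values measure the spread between these samples. Per the submitters' processing notes the authors used FastQC, STAR and featureCounts with build mm39. Per the file headers, the deposited values are raw read counts that featureCounts 2.0.2 collected over GENCODE vM26 exons for each gene name. Its command took paired input, counted each mate and ignored strand. Reads fitting several places or genes were not counted. STAR's version is not given in the sources used here.

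All genes were fitted in R 4.3.3 with edgeR 4.0.16 (filterByExpr, TMM, robust glmQLFit, glmQLFTest on group), keeping 20541 of 53546 genes. Benjamini-Hochberg adjustment was applied, with a threshold of 0.05. SE was the fold change over the root of F, and 95% intervals from its t quantile. CPM used TMM-scaled library sizes. Deviations and SDs used log2 CPM with a prior count of 2, computed from the deposited counts. The procedure was tested on simulated data. Alternatives were DESeq2 1.42.0, limma-voom with quality weights (limma 3.58.1), other scalings and filters, removal of mitochondrial and hepatocyte genes, a replicate block and each library left out. The genes and lists were chosen with earlier results of these data known. Named genes outside the 10 were, per list, the 4 with the smallest p and the 1 most abundant per kb, of which 1 gene is not reported here; Il18, Gsdme, the Gbp genes and the gasdermin genes at 0 were added after their values were seen. Naip7, Pydc3 and Pydc4 were not matched by name. Promoters came from RefSeq (GRCm38.p6, which differs from mm39), for 9 of 10 genes. Shared 50-base stretches came from GENCODE vM21 transcripts.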

Additional observations from a re-analysis of the deposited data

How the results depend on the processing

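The count of 0 of the 10 genes past the adjusted threshold held under all 15 alternatives, with 1 gene, Mefv, at an unadjusted p under 0.05 by DESeq2, by limma-voom with quality weights and without wild type replicate 3. The count over all genes, 10 by edgeR, was less stable: it was 32 without a filter on low counts, 59 by DESeq2 and 99 by limma-voom, and 3 to 40 when 1 library was left out, with 3 without SRA-/- replicate 3 and 40 without SRA-/- replicate 2. Without wild type replicate 1 and SRA-/- replicate 2 together, an alternative chosen after seeing the data, it was 101. With the replicate number as a block it was 5 and 0 of the 10 genes passed. Same-numbered libraries had deviations correlated at -0.29, -0.14 and -0.13 over 20541 genes, and no library correlated best with its own number, so the numbers were not taken to pair the libraries. The scaling alternatives moved the median of all genes by at most 0.02 on the log2 scale. Depth limits Nlrp1b most, with 26 to 107 counts per library.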
